A study of Mus musculus with 6 samples.

Results

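The E2F transcription factors and the RB pocket proteins were followed in CT26 cells, a colon carcinoma line of BALB/c mice, with and without knockdown of the 15 kDa selenoprotein Sep15. The genes taken were those whose symbol in the array annotation was E2f1, E2f2, E2f3, E2f4, E2f5, E2f6, E2f7, E2f8, Rb1 or Rbl1. These are 10 of the 18193 genes measured, read by 22 of 45037 probe sets. The control group held 3 samples from CT26 cells given the empty pU6-m3 plasmid. The shSep15 group held 3 samples from CT26 cells given pU6-m3 with a hairpin against Sep15, so that the vector was common to both groups and the comparison rests on 1 hairpin. The stretch of the Sep15 cDNA that the hairpin was built on, printed because it defines the treated group, was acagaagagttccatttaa. The labels do not say whether the cells were clones or pools, nor whether the 3 RNA samples of a group came from separate cultures.

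E2F factors bind DNA together with a DP partner and set the transcription of genes for S phase entry and replication. E2F1, E2F2 and E2F3 are the activators, which RB holds inactive until cyclin-dependent kinases phosphorylate it. E2F4 and E2F5 act as repressors with the pocket proteins p107 and p130, E2F6 represses without a pocket protein, and E2F7 and E2F8 are atypical repressors that bind DNA without DP. Several of these genes, among them those of the atypical repressors and p107, are known E2F targets themselves. In many carcinomas this pathway is deregulated.

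RNA of each sample was read on an Affymetrix Mouse430_2 array of its own, and all values are deposited log2 RMA values, a summary of the probes of a set after normalization between arrays. Array medians lay between 5.83 and 5.87. Control replicate 3 fitted its group least closely, with a limma array weight of 0.51 against 0.81 to 1.63 for the others, and without it the 6 rises given below were still called. Selenof, the current symbol of Sep15, read 12.41, 12.44 and 12.35 on the control arrays and 9.34, 9.59 and 9.50 on the shSep15 arrays, so the targeted transcript was lower in every treated sample. The level of dim signal, called background here, was log2 6.02. Of 7 markers of colon epithelium, Epcam averaged 7.59 in control cells on 1447899_x_at, but its other set, 1416579_a_at, was under background at 5.39. Cdh1, Vil1 and Cdx2 were under background at 4.03, 4.90 and 5.60. Krt8, Krt18 and Krt20 lay above it at 6.07, 6.65 and 8.28 in control cells. For Krt8 this held on 1423691_x_at only, and its sets 1420647_a_at and 1435989_x_at were under background at 5.78 and 5.15. The mean over these markers was 6.10 to 6.19 across control samples and 5.39 to 5.65 across shSep15 samples. Of these markers 2, Krt18 and Krt20, fell by 2.16 and 2.13 (limma, adjusted p under 0.05), where 12.8% of all genes fell. Of 5 leukocyte markers measured, Ptprc, which defines these cells, lay under background in both groups at 4.14 and 4.23, and Cd3e just above it at 6.26 and 6.39. Of the list 2 fell, again beside 12.8% of all genes. They were Cd68, lower by 1.48 from a control mean of 7.47, and Itgam, under background, lower by 0.37. The mean over the list was 5.58 to 5.83 in control and 5.33 to 5.45 in shSep15 samples. The part of these shifts in the results below was not tested.

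On the brightest probe sets, the repressor genes E2f8, E2f7 and E2f6 and the pocket protein gene Rbl1 led the rises. No gene of the family was called lower. Of the 10 genes, 6 rose and 0 fell in shSep15 cells (limma, adjusted p under 0.05), where 25.0% of all genes were called, 12.2% rising and 12.8% falling. In order of size the rises were those of E2f8, E2f7, E2f6, Rbl1, E2f3 and E2f2. E2f1, E2f4, E2f5 and Rb1 were not past the threshold. The median difference over the 10 genes was 0.71 (log2, shSep15 minus control), against 0.01 over all genes. Levels of different genes are not compared, since each probe set has its own response. RMA sets the arrays to a like distribution, so a shift of all transcripts together would go unseen, and fewer cells expressing a gene cannot be told apart from less RNA per cell.

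**Figure D1:**
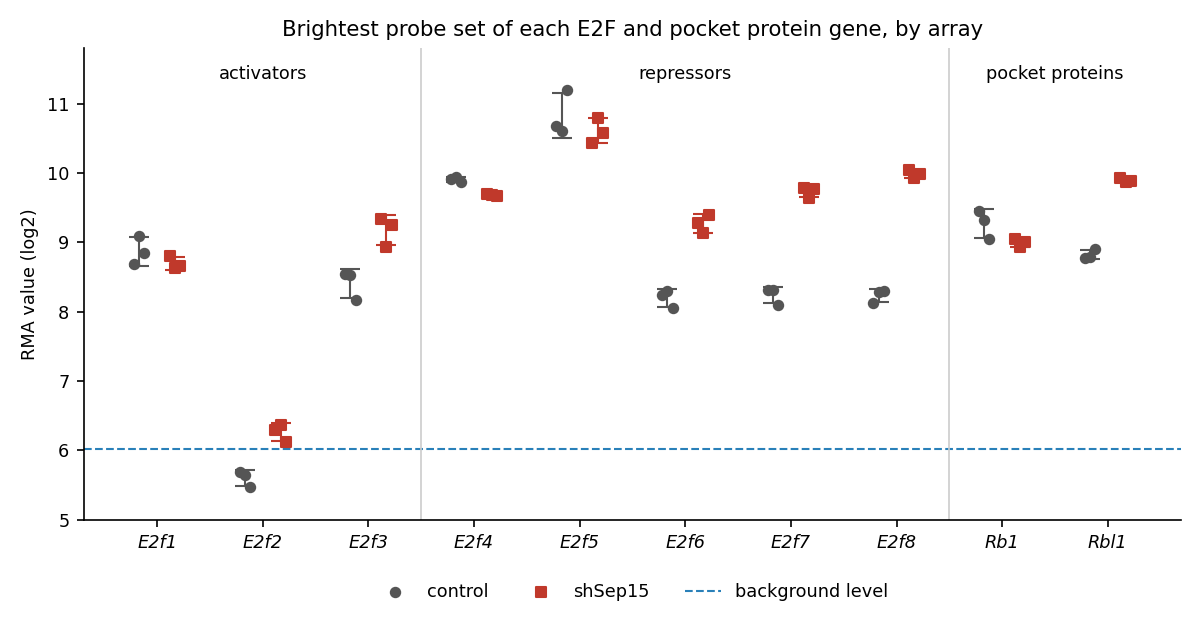
RMA value (log2) of the brightest probe set of each of the 10 genes on 3 control arrays (circles) and 3 shSep15 arrays (squares), with the SD around the group mean and the background level of 6.02 as a dashed line. The groups stand apart upward for E2f2, E2f3, E2f6, E2f7, E2f8 and Rbl1.

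Promoter windows of 4 genes that rose and hold an E2F motif are shown, because E2F factors are known to act on promoters of this family. Windows of GRCm38.p6, from 250 bases before to 50 bases after an annotated start, were taken from RefSeq, which gave windows for E2f1, E2f2, E2f3, E2f6, E2f7, E2f8 and Rbl1. E2f4, E2f5 and Rb1 had none among the windows used. The E2f7 window is chr10:110745189-110745488 (plus strand), that of E2f8 chr7:48881547-48881846 (minus strand), that of Rbl1 chr2:157204485-157204784 (minus strand) and that of E2f3 chr13:29986014-29986313 (minus strand). Sequences run 5′ to 3′ along the gene, and capitals mark the E2F motif defined in the next paragraph, in its full form or without its first T, on either strand.
E2f7: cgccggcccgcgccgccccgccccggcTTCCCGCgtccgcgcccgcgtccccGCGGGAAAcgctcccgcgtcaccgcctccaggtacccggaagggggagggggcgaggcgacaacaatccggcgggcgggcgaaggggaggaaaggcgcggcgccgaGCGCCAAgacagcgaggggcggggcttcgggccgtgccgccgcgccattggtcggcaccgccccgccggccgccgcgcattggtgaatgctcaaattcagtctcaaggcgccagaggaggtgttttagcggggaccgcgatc
E2f8: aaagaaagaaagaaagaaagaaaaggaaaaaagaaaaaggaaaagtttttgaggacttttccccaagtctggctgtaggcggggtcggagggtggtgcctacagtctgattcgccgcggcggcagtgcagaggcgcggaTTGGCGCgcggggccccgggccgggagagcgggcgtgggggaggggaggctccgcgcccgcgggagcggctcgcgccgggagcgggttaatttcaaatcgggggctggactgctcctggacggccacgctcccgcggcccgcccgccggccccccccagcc
Rbl1: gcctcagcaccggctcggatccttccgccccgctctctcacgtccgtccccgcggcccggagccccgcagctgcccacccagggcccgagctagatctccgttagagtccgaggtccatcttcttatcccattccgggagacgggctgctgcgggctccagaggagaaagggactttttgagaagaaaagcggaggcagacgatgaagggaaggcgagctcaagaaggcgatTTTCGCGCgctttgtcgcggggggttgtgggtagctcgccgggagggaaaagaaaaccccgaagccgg
E2f3: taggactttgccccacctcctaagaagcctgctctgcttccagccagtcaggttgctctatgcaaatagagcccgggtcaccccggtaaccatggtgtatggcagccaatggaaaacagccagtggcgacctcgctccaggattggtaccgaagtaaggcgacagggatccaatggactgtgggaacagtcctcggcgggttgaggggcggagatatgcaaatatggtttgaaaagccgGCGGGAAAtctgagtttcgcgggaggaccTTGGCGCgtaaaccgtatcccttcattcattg

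The motif searched was TTTGGCGC, TTTCCCGC, TTTCGCGC or TTTGCCGC on both strands, the forms of the E2F consensus, with the same letters lacking the first T as a looser form contained in it. Counting the first transcribed base as 1, E2f7 held TTTCCCGC on the reverse strand from −198 to −191, and the looser form at 2 further places, from −223 to −217 and from −92 to −86. Rbl1 held TTTCGCGC from −18 to −11. E2f3 held TTTCCCGC on the reverse strand from −11 to −4 and the looser TTGGCGC from 19 to 25. E2f2, whose window is not printed, held TTTGGCGC from 40 to 47. E2f8 held only the looser TTGGCGC, from −111 to −105. The cell cycle homology element TTTGAA, bound by the MuvB complex, lay at −23 to −18 in E2f3, on the reverse strand at −20 to −15 in E2f8, and at −31 to −26 in a further window of E2f2. No match lay in the windows of E2f1 and E2f6, nor in a further one of E2f3. The windows of E2f1, E2f6 and E2f8 start inside the annotated gene, so another start of these genes lies outside them. Over all 18109 windows of measured genes, 3.21% held the full motif, 13.65% the looser form and 13.4% TTTGAA. A match is a description of the letters and not evidence of binding.

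The atypical repressors E2f8 and E2f7 had the largest rises of the 10 genes on the brightest probe sets. E2f8, which represses E2F targets late in S phase together with E2f7, read 8.12, 8.28 and 8.29 on the control arrays and 10.04, 9.93 and 9.99 on the shSep15 arrays (probe set 1436186_at). Every shSep15 array lay more than a log2 unit above every control array. The difference was 1.75 (log2, SE 0.10, 95% interval 1.53 to 1.98, limma adjusted p = 6.88e-06), or 3.37-fold. A second probe set, 1444319_at, read 6.90, 7.02 and 6.82 against 8.43, 7.75 and 8.20 and rose by 1.22 (SE 0.17, limma adjusted p = 0.00101). Its shSep15 replicate 2 was the lowest of the treated arrays, still above all controls.

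E2f7 had 1 probe set, 1437187_at, which read 8.31, 8.31 and 8.10 on the control arrays and 9.78, 9.64 and 9.78 on the shSep15 arrays. The groups did not overlap, and the spread within each was small beside the gap. The rise of 1.49 (log2, SE 0.11, 95% interval 1.25 to 1.73, limma adjusted p = 2.32e-05) was 2.80-fold. The interval of E2f7 overlaps those of E2f8, E2f6 and Rbl1, so its place in the order is not settled.

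E2f6, the pocket-independent repressor and a subunit of a Polycomb complex, read 8.24, 8.31 and 8.05 on the control arrays against 9.28, 9.14 and 9.40 on the shSep15 arrays (1448835_at). Again each treated array exceeded each control array. E2f6 rose by 1.08 (log2, SE 0.12, 95% interval 0.81 to 1.34, limma adjusted p = 0.000241), or 2.11-fold. Its other probe set, 1437914_at, was under background in both groups and differed by 0.36 (limma adjusted p = 0.0988).

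The pocket-dependent repressors were not called. E2f4, the most abundant repressor in many cell types, read 9.92, 9.94 and 9.87 in control and 9.70, 9.69 and 9.66 in shSep15 samples. All treated arrays lay slightly below all controls, by a mean of −0.22 (log2, SE 0.08, 95% interval −0.41 to −0.04), and limma's adjusted p was 0.0960. E2f5 gave 3 probe sets above background that disagreed. The brightest, 1447625_at, read 10.68, 10.61 and 11.20 against 10.44, 10.80 and 10.58, with control replicate 3 the highest value and the groups overlapping (difference −0.22, limma adjusted p = 0.422). The other probe sets of E2f5 gave 0.15 for 1417444_at and 0.32 for 1460207_s_at (limma adjusted p = 0.617 and 0.0735), so the direction for E2f5 depends on the probe set. An s in the name marks a set whose probes can match more than 1 transcript.

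Among the activators, E2f3 and E2f2 rose by smaller amounts than E2f8 and E2f7 on the brightest sets, and E2f1 was not called. E2f3 read 8.54, 8.52 and 8.17 on the control arrays and 9.34, 8.93 and 9.25 on the shSep15 arrays (1434564_at). The groups did not overlap, and the rise was 0.76 (log2, SE 0.15, 95% interval 0.42 to 1.09, limma adjusted p = 0.00583), or 1.69-fold. The other E2f3 probe set, 1427462_at, read 7.36, 7.44 and 7.08 against 7.83, 7.28 and 7.48 with overlap (difference 0.24, limma adjusted p = 0.416), so the call rests on 1 of the 2 sets.

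E2f2 was dim. Its brighter probe set, 1436434_at, read 5.69, 5.65 and 5.47 in control samples, all under background, and 6.30, 6.37 and 6.12 in shSep15 samples, all above it. The rise of 0.66 (log2, SE 0.12, limma adjusted p = 0.00332) is therefore taken against signal not above background and its size is not exact. The other set, 1455790_at, stayed under background and was higher by 0.48 (limma adjusted p = 0.0348). E2f2 lies on chromosome 4, where the median difference of 687 genes above background was 0.16, against 0.01 over all genes above background.

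E2f1, the activator also known for inducing apoptosis genes, read 8.68, 9.09 and 8.84 on the control arrays and 8.80, 8.63 and 8.66 on the shSep15 arrays (1417878_at). The groups overlapped and the difference was −0.17 (log2, SE 0.13, 95% interval −0.46 to 0.12, limma adjusted p = 0.449). The next set, 1431875_a_at, gave 0.17 (95% interval −0.13 to 0.47) and 1447840_x_at gave −0.02. All 3 intervals hold 0, and none of them reaches the size of the rise in E2f7 or E2f8.

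The pocket protein genes parted. Rbl1 encodes p107, whose own gene is repressed by E2F complexes in resting cells. It read 8.78, 8.79 and 8.90 on the control arrays against 9.93, 9.87 and 9.89 on the shSep15 arrays (1424156_at), 2 groups far apart with little spread. Rbl1 rose by 1.07 (log2, SE 0.09, 95% interval 0.87 to 1.28, limma adjusted p = 5.57e-05), or 2.10-fold. Its dimmer set 1425166_at read 6.76, 6.71 and 6.33 against 8.54, 7.95 and 8.51 and rose by 1.73 (SE 0.19, limma adjusted p = 0.000212). The 2 other sets of Rbl1 were under background.

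Rb1, the retinoblastoma tumour suppressor, read 9.45, 9.32 and 9.04 in control and 9.05, 8.93 and 9.001 in shSep15 samples (1417850_at). Control replicate 3 lay among the treated arrays. The difference was −0.27 (log2, SE 0.12, 95% interval −0.55 to 0.0003, limma adjusted p = 0.173). Without control replicate 3 it was −0.39 and limma's adjusted p 0.0423, so the lack of a call for Rb1 rests on that array. The other set of Rb1 was under background.

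**Figure D2:**
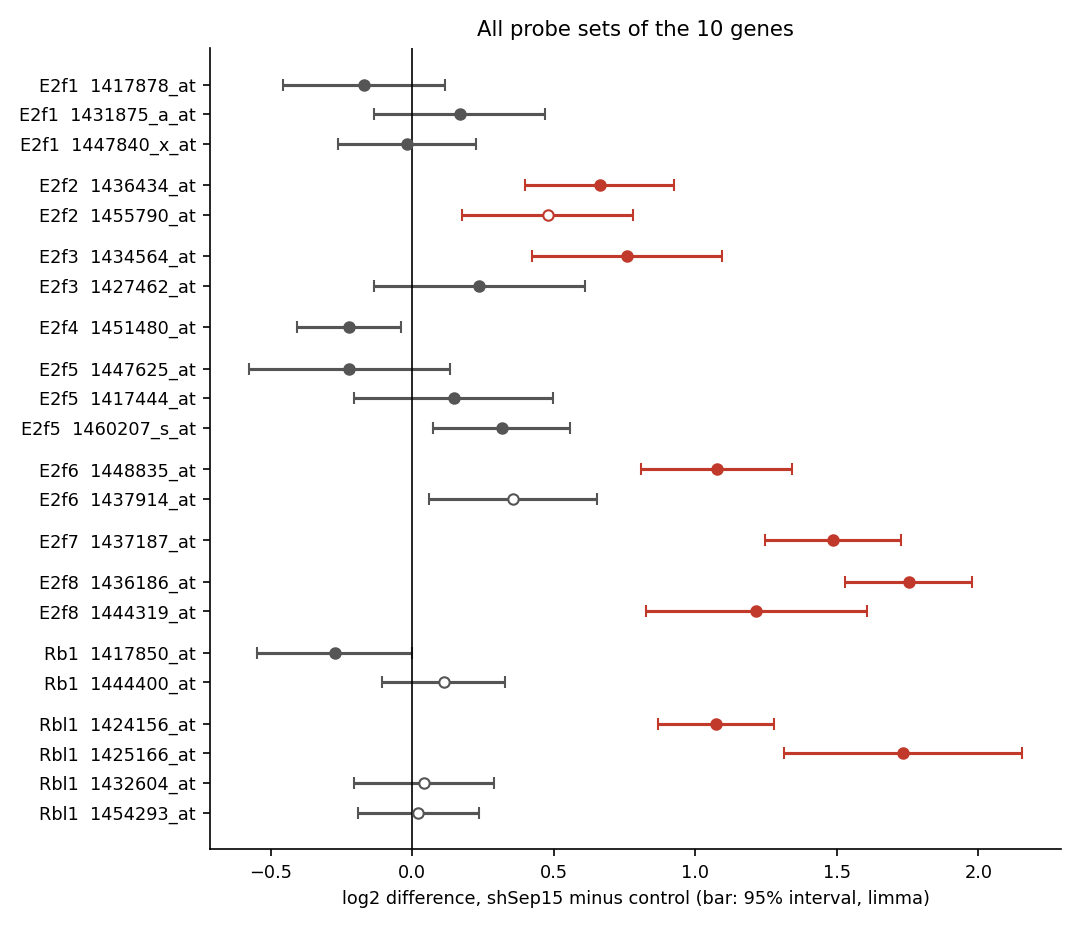
Log2 difference (shSep15 minus control) of all 22 probe sets with its 95% interval from limma; red marks sets past the threshold and open points sets under background in both groups. Of the 22, 9 rose and none fell, and the sets of E2f1 and E2f5 lie on both sides of 0.

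Set by set, 9 of the 22 probe sets rose and 0 fell, where 9.71% of all probe sets rose. The arrays of the groups did not overlap for 7 of the 10 genes, 6 higher and 1 (E2f4) lower. Over all genes 38.1% did not overlap and 19.3% were higher without overlap. By class, the median difference was 0.66 for the 3 activators (the value of E2f2, not exact), −0.22 for the 2 pocket-dependent repressors and 1.62 for the 2 atypical repressors, with 1.08 for E2f6. For the 2 pocket proteins it was 0.40, with Rbl1 at 1.07 and Rb1 at −0.27. Activators and repressors both held genes that were called and genes that were not. The rise of each atypical repressor was set against each activator's within arrays, over 6 pairs. These 2 repressors had the largest rises of the 10 genes on the brightest sets, so the direction of each gap was given beforehand. E2f4, E2f5 and E2f6 were not paired, and the gaps do not speak for repressors as a class. E2f8 rose by 1.92 more than E2f1 and by 0.99 more than E2f3, and E2f7 by 1.66 and 0.73 more. Against E2f2 the gaps were 1.09 and 0.82, whose sizes are not exact because the control signal of E2f2 was under background. In each pair the log ratios of the groups did not overlap. The exact two-sided permutation p was 0.1 for each pair, also after adjustment over the 6, and this is the smallest p that 3 arrays against 3 can give.

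The E2F partners and regulators moved in both directions. Of the 2 DP genes, Tfdp1 read 11.22, 11.16 and 11.12 in control against 11.71, 11.51 and 11.66 in shSep15 samples, and rose by 0.46 (SE 0.07, limma adjusted p = 0.00160). Tfdp2 fell on its brightest set by 0.33 (limma adjusted p = 0.0472), whereas set 1435344_at rose by 0.65 (limma adjusted p = 0.00801) and 1443962_at fell by 0.41. The call of the brightest set was lost without any single array (limma adjusted p 0.0589 to 0.142), and no direction can be given for Tfdp2. Of 9 genes of the MuvB core, its kinase and its partners, 2 rose and 1 fell on the brightest sets, near the 12.2% and 12.8% of all genes, with a median of 0.09. Dimmer sets of genes not called went both ways, named after their values were seen. For the kinase gene Dyrk1a, 1451977_at fell by 0.48 and 1426226_at by 0.78 (limma adjusted p = 0.032 and 0.00797). For Rbbp4, 1456260_at rose by 0.60 (limma adjusted p = 0.0288). B-Myb, which carries MuvB to mitotic genes, is encoded by Mybl2 and rose by 1.24 (SE 0.18, limma adjusted p = 0.00108). Lin37 rose by 0.38, a call lost without any single array (limma adjusted p 0.0621 to 0.112), and Lin54, the subunit that contacts DNA, fell by 0.66 (limma adjusted p = 0.0413 and 0.0270). Without control replicate 1 or 2, or shSep15 replicate 2 or 3, only Mybl2 of the 9 genes was called. Rbl2, which encodes the third pocket protein p130 and was added to this list, read 7.79, 7.74 and 7.26 against 7.97, 7.79 and 8.21 (difference 0.39, limma adjusted p = 0.172).

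Kinases and cyclins that phosphorylate RB mostly rose. Of 9 genes, 7 rose and 1 fell (12.2% and 12.8% over all genes), with a median of 0.89. Ccne1, Ccne2 and Ccna2 are also among the cell cycle targets below, so their rises are counted in both lists. Cyclin E2, encoded by Ccne2, rose by 2.36 (SE 0.17, limma adjusted p = 2.33e-05). Ccne1 rose by 1.17, their kinase Cdk2 by 1.14 and the D-type cyclin Ccnd3 by 0.90. A dimmer Ccnd3 set above background, 1444323_at, differed by 0.19 (limma adjusted p = 0.312), named after its value was seen. Cdk4, the partner of the D cyclins, fell by 0.22 (SE 0.05, limma adjusted p = 0.0165), and its 3 probe sets were all lower; it was singled out after its value was seen. Of 7 inhibitors of these kinases, 2 rose and 0 fell, with a median of −0.03; 25.0% of all genes were called. The 2 that rose encode INK4 proteins: Cdkn2c by 1.32 and Cdkn2d by 1.25 (limma adjusted p = 3.15e-05 and 0.000142). The 3 near background in both groups were Cdkn2a, Cdkn2b and Cdkn1c, named after their values were seen.

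Textbook targets of the E2F activators rose with the atypical repressors. Of 30 cell cycle targets listed, 27 were measured, and 23 rose and 0 fell, with a median of 1.03. Over all genes 12.2% rose, and 19.2% of those above background. The list was chosen with earlier results of these data known, so its count is not independent of them. Of the genes in the list that rose, 1 was near background in both groups. Ccne1, Ccne2, Ccna2 and Mybl2 also stand in the lists above. Thymidine kinase Tk1 read 7.63, 8.09 and 8.08 in control and 10.39, 10.51 and 10.38 in shSep15 samples and rose by 2.49 (SE 0.14, limma adjusted p = 5.92e-06). The licensing factor Cdc6 rose by 2.17 and its antagonist geminin, encoded by Gmnn, by 1.69. The 4 not past the threshold were Ung, Pcna, Mcm2 and Cdc25a, named after their values were seen. Of 8 apoptosis targets of E2F1 measured, 2 of them near background in both groups, 0 rose and 1 fell, which is near the 12.8% of all genes that fell. It was Bbc3, lower by 1.84 (SE 0.15, limma adjusted p = 4.79e-05). The other 7 differed by 0.02 to 0.22 on their brightest sets. Some of their other sets gave negative differences, among them 1450223_at of Apaf1 with −0.52 (limma adjusted p = 0.0577), named after its value was seen.

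Genes that work with E2F6 went both ways. Of 8 partners in its Polycomb complex, 1 rose and 3 fell (12.2% and 12.8% over all genes), with a median of −0.12. Mga, the scaffold that brings E2F6 and Max together, fell by 0.72 (SE 0.20, limma adjusted p = 0.0339). The ubiquitin ligase Rnf2 fell by 0.54 and Wdr5 by 0.32, while L3mbtl2 rose by 0.49. Dimmer Mga sets above background, 1422646_at and 1431232_a_at, differed by −0.55 and −0.29 and were not called (limma adjusted p = 0.121 and 0.413). The other Wdr5 set differed by −0.30 (limma adjusted p = 0.0954), and the other Rnf2 sets were all lower. These sets were named after their values were seen. Without control replicate 1 or 2, or shSep15 replicate 2 or 3, 1 rise and at most 1 fall were called, so the count of falls rests on single arrays. Germline genes known to be repressed by E2F6 (Stag3, Smc1b, Slc25a31 and Tuba3b measured) were under background in both groups, and 0 of 4 were called by limma.

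**Figure D3:**
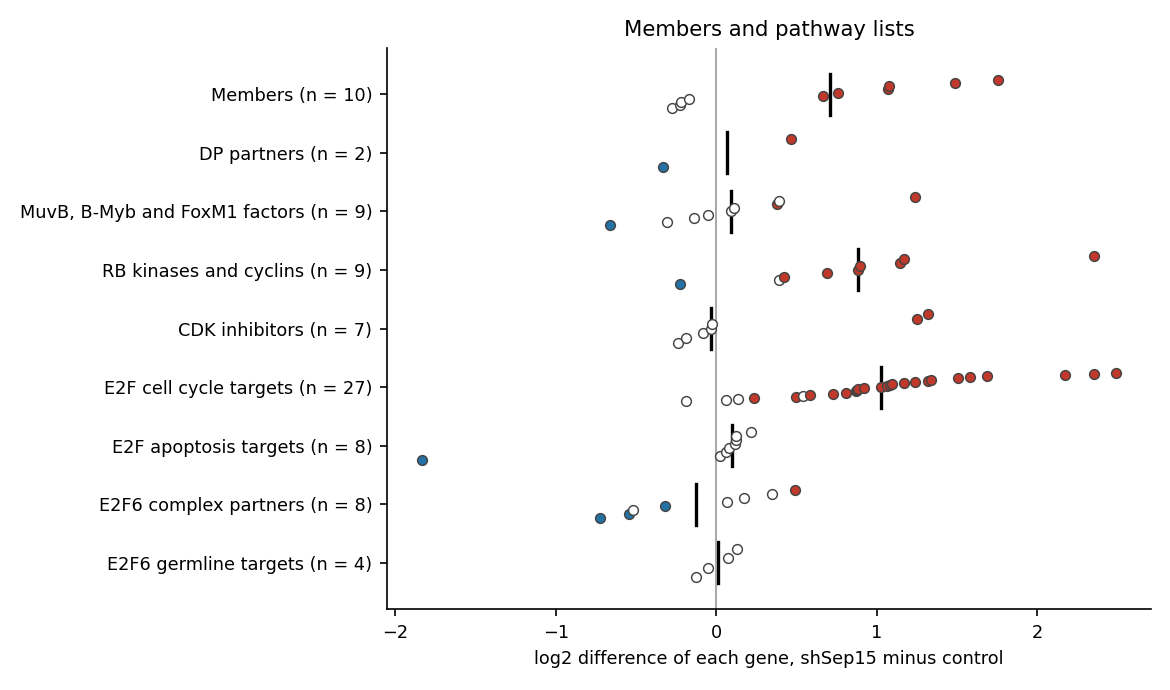
Log2 difference (shSep15 minus control) of each gene in the family and in the 8 pathway lists; filled red points rose, filled blue points fell, open points were not past the threshold, and bars mark medians. The cell cycle targets, with a median of 1.03, and the RB kinases and cyclins, with 0.89, lie mostly to the right of 0. Ccne1, Ccne2, Ccna2 and Mybl2 are shown among the cell cycle targets and again in another list.

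The promoter motif was also read across the genome. Of 14452 genes with a window, 550 held the full E2F motif. Of these 128 rose and 72 fell, or 23.27% and 13.09%. Among the 13902 genes with a window but no full motif, 12.49% rose and 12.63% fell, and over all genes with a window 12.9% rose. Restricted to genes above background, 28.31% of 445 genes with the motif rose and 15.73% fell, against 19.44% and 19.63% of 8603 without it. The median difference was 0.12 with the motif and 0.02 without it among these genes. The difference between genes with and without the motif was not tested, nor was the part of base composition and level in it.

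**Figure D4:**
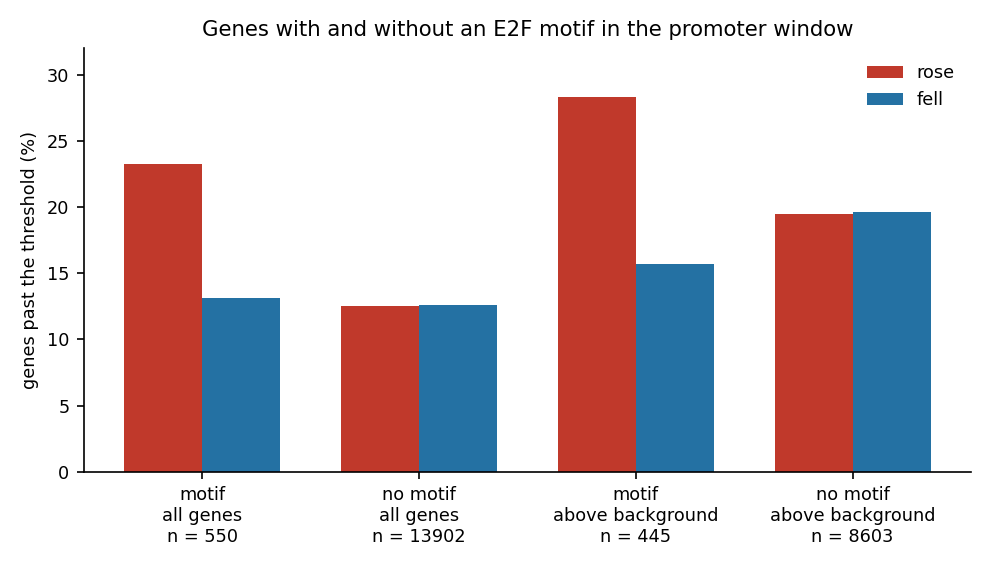
Share of genes (%) that rose (red) or fell (blue) among genes with and without the full E2F motif in the promoter window, over all genes with a window and over those above background. With the motif 23.27% rose, and without it 12.49%.

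The genes most like E2f8 across the 6 arrays were sought by the root mean square distance between values centred on each gene's own mean, over 11130 other genes above background. With little spread within the groups, this distance mostly measures how close the group differences are. Nearest were Mycbp, which encodes a MYC-binding protein (distance 0.05 log2 units, difference 1.69), Tacc3, a spindle protein (0.06, 1.66), and Fbxo5, which encodes the inhibitor of the anaphase-promoting complex Emi1 (0.06, 1.79). No gene of the family fell, so the same search was not made for a fall. E2f5 and Selenof lie on chromosome 3, where the median difference of 544 genes above background was 0.26, while E2f5 itself stood at −0.22 on its brightest set. On the chromosomes of the 8 other genes besides E2f2 and E2f5 the medians lay between −0.06 and 0.07.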

How the data were processed

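RNA of 6 CT26 samples was measured on Affymetrix Mouse430_2 arrays. The deposited log2 values, 1 per probe set and array, were made by the authors with RMA, per the submitters' processing notes, whose version is not given in the sources used here. RMA gives no detection call. The range was 3.31 to 14.24, and no further normalization was applied.

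The table lists 45101 probe sets, of which the 64 array controls were left out. Symbols came from the platform annotation, updated by gene identifier through RefSeq (GRCm38.p6; 34741 of 34945 single-symbol sets found). A gene's value is that of its brightest single-symbol set. The background level is the 95th percentile of 80 olfactory and vomeronasal receptor sets.

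Each of 45037 probe sets was fitted with limma 3.58.1 (lmFit, and eBayes with trend) under R 4.3.3, group as the only term, two-sided, adjusted by Benjamini-Hochberg over all of them at 0.05; the fit was tested on simulated data. The spread covers these samples only, which may be technical replicates, and 3 arrays per group limit precision. Same-numbered samples did not deviate together throughout (correlations 0.38, −0.15 and −0.02), where differently numbered ones gave −0.36 to 0.37. No pairing was used in the main fit. The members and lists were chosen with earlier results of these data known. Named are all members, Selenof, and up to 4 called genes of each list with the largest differences, besides the 3 genes nearest to the member with the largest rise; exceptions are marked. Alternatives were other normalizations, variance models and weights, a replicate block, means over probe sets, a filter on dim sets, each array left out, and a shorter motif. List members with no single-symbol probe set were not analysed here.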

Additional observations from a re-analysis of the deposited data

How the results depend on the processing

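The calls of E2f2, E2f3, E2f6, E2f7, E2f8 and Rbl1 held under every alternative in which they were fitted; E2f2 has no value with only probe sets above background. The differences ranged from 1.48 to 1.78 for E2f8, 1.42 to 1.53 for E2f7, 0.72 to 1.14 for E2f6, 0.72 to 1.11 for Rbl1, 0.50 to 0.88 for E2f3 and 0.57 to 0.73 for E2f2. The number of the 10 genes called was 5 to 7. With the mean of a gene's probe sets, a fit over fewer rows, E2f4 was called at the same difference (−0.22, limma adjusted p = 0.0387). With only probe sets above background, also fewer rows, E2f4 was not called (limma adjusted p = 0.0539). The cause of the E2f4 call was not tested. E2f5 turned to 0.08 with the mean of probe sets (limma adjusted p = 0.505). Without control replicate 3, Rb1 was called (−0.39); leaving out single arrays gave −0.39 to −0.18 for it. Of the 2 DP genes, 1 was called with each array shifted to the same median, with quantile normalization, with the replicate block, with the mean of probe sets and without any single array; the cause was not tested. Leaving out single arrays left 1 to 2 of the MuvB genes and 1 to 4 of the E2F6 partners called. The shorter motif gave 783 called genes of 2311, 470 of them higher, since more windows hold it. The replicate block changed no call of the 10 genes (6 called), and 22 of the 27 cell cycle targets were called with it.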
